A study of Mus musculus with 8 samples.

Results

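Ell2, an elongation factor of RNA polymerase II, was measured together with 9 other genes of the super elongation complex in osteoblastic cells, the cells that lay down bone matrix. The 10 genes were chosen by symbol, and all 10 were among the 17068 genes of the deposited table. Ell2 itself was picked because its level was lower in every leukemic library, so its difference between the groups is given as a description, without a test. The other 9 were named for their place in the complex. The study compared osteoblastic cells sorted from collagenase-digested long bones of female C57BL/6J mice aged about 10 weeks, in 2 groups: animals carrying BCR-ABL+ B-cell acute lymphoblastic leukemia, and healthy animals. There were 4 leukemic and 4 control libraries, and no other treatment or allele is given in the labels. The labels do not say that each library came from its own animal, nor whether animals were pooled, so p-values measure the spread between these libraries, which may be technical. In bulk RNA of this kind, fewer cells of a type and less RNA per cell cannot be told apart.

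RNA polymerase II often stops shortly after it has started a gene, held by the factors NELF and DSIF. P-TEFb, the kinase Cdk9 with a cyclin T, releases it. The super elongation complex brings P-TEFb to paused polymerase: Aff1 or Aff4 forms the scaffold, and Mllt3 (AF9) or its paralog ENL, an ELL protein and an EAF protein bind to it. ELL proteins themselves speed up the polymerase. Ell2 is best known from antibody-secreting plasma cells, where it directs the switch to secreted immunoglobulin transcripts.

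The 3 ELL genes lie on different chromosomes of the build GRCm38.p6. Ell (gene ID 13716) spans chromosome 8 from 70539675 to 70592858 on the plus strand, Ell2 (192657) chromosome 13 from 75707484 to 75772361 on the plus strand, and Ell3 (269344) chromosome 2 from 121439027 to 121442601 on the minus strand. Their proximal promoters are shown because the 3 paralogs stood at different levels and only Ell2 had groups that did not overlap. Each line gives the 250 bases before the RefSeq gene start, read 5′ to 3′ on the gene's strand (RefSeq, GRCm38.p6). The windows are chr13:75707234-75707483 for Ell2, chr8:70539425-70539674 for Ell and chr2:121442602-121442851 for Ell3. Capitals mark matches, on either strand, to 7 motifs that were searched: the TATA box (TATAAA), the CCAAT box, the GC box (GGGCGG), the E box (CACGTG), the AP-1 site (TGANTCA), the cyclic AMP response element (TGACGTCA) and an NF-kB-like site.
Ell2: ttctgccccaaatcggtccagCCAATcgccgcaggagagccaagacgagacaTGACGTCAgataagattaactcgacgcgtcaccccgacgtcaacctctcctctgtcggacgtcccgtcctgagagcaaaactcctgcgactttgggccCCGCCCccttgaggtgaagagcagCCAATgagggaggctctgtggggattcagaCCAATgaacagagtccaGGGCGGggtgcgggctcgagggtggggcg
Ell: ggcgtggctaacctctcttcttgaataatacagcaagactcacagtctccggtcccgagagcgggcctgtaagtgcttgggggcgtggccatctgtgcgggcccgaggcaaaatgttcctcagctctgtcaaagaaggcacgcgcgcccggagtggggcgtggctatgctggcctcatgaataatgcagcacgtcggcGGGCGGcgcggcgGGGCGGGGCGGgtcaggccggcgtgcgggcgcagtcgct
Ell3: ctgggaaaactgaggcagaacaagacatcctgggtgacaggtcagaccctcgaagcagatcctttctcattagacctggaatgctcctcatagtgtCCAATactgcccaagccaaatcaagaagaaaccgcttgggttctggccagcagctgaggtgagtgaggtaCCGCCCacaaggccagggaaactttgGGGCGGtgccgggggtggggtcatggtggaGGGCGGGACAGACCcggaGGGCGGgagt

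The Ell2 window held 3 CCAAT boxes, 2 GC boxes (GGGCGG) and 1 full cyclic AMP response element (TGACGTCA). In 250-base windows of 32841 mouse promoters the shares with at least 1 match were 33.9% for CCAAT, 32.7% for GGGCGG and 1.55% for TGACGTCA. The Ell window held 3 GC boxes, of which a pair overlapped by their ends, and no CCAAT box. The Ell3 window held 1 CCAAT box, 4 GC boxes and 1 NF-kB-like match, a motif that was present in 17.6% of promoters and here overlapped a GC box. None of the 3 windows matched TATAAA (12.4% of promoters), CACGTG (6.02%) or TGANTCA (6.75%). CpG pairs numbered 19 for Ell2, 26 for Ell and 8 for Ell3, where the median promoter had 6. These matches describe letters only, and no binding was measured.

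Ell2 was expressed at a moderate level in healthy osteoblastic cells and at a lower one in leukemic animals. Its level was 8.71, 13.01, 9.95 and 13.74 FPKM in control libraries 1 to 4. It was 6.16, 6.04, 4.56 and 5.03 FPKM in leukemic libraries 1 to 4. FPKM scales fragments to transcript length and to the mapped total of the library, so levels of different genes can be set side by side. The highest leukemic library stayed below the lowest control library, and the controls were spread more widely. The means were 5.45 ± 0.779 FPKM (SD, n = 4) in leukemic and 11.4 ± 2.41 FPKM (SD, n = 4) in control libraries, so that the leukemic mean was 48.0% of the control mean. On the scale of log2(FPKM + 1), which understates changes of low genes, the difference was -0.92 (SE 0.20, limma). In the authors' deposited table the log2 ratio for Ell2 was -1.04.

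Libraries differed in their balance of short and long transcripts, and Ell2 has a transcript of 4382 bases. The Spearman correlation between the deviation of genes from their mean and transcript length, across genes of 1 library, was -0.36 and -0.37 in leukemic libraries 1 and 2, against -0.11 and 0.35 in leukemic libraries 3 and 4 and 0.05 to 0.35 in the controls. Genes are not independent replicates. The 2 leukemic libraries that held more short transcripts had the higher Ell2 levels of their group. The Ell2 difference was -1.07 without leukemic libraries 1 and 2, and -0.85 with the length trend removed from every library. The part of length balance in the Ell2 difference was not tested.

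**Figure D1:**
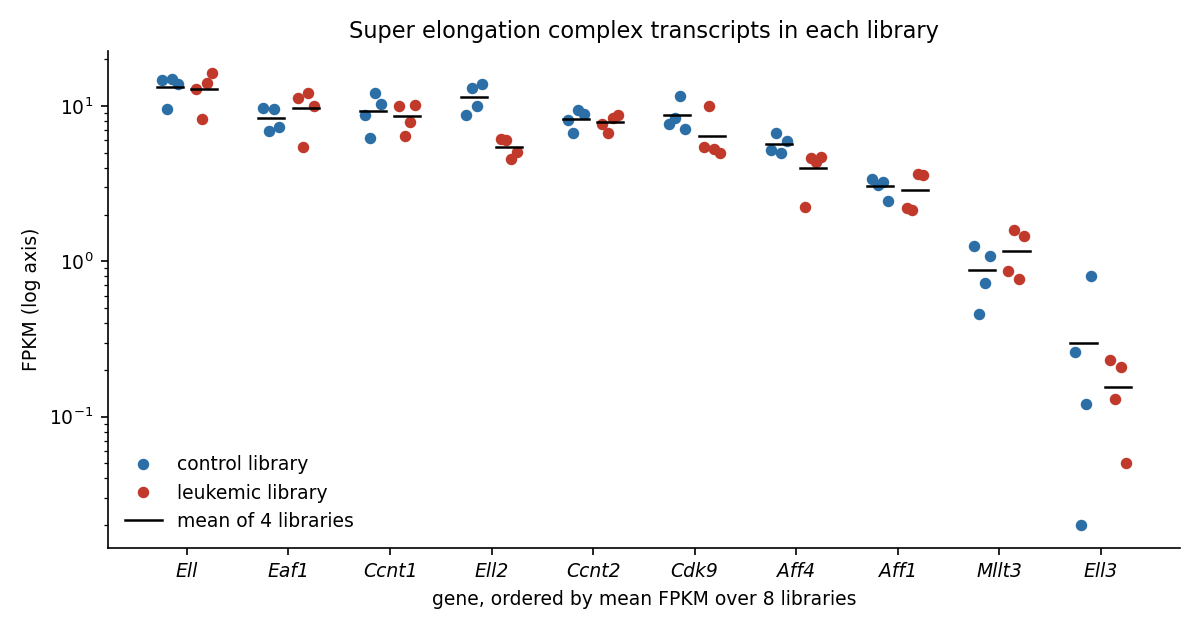
FPKM (log axis) of the 10 genes in each of 4 control (blue) and 4 leukemic (red) libraries, with black lines at the group means. Ell2 lay between 8.71 and 13.74 FPKM in controls and between 4.56 and 6.16 FPKM in leukemic libraries, while most other genes overlapped widely.

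Ell, the founding ELL protein, was the most abundant gene of the complex and had nearly the same level in both groups. It stood at 14.63, 9.62, 14.81 and 13.76 FPKM in control libraries 1 to 4. In leukemic libraries 1 to 4 it stood at 12.91, 8.24, 14.13 and 16.21 FPKM. Library 2 was the lowest of each group, and the groups overlapped almost fully. The difference was -0.05 (SE 0.23, 95% interval -0.57 to 0.46, limma adjusted p = 0.967).

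Ell3, a paralog described in testis and stem cells, was near the floor of the table, at 0.02 to 0.80 FPKM in controls and 0.05 to 0.23 FPKM in leukemic libraries. It did not reach the level needed for a test. Its level is also uncertain, since 65.6% of its annotated exonic bases were shared with Serinc4 transcripts on the same strand. For the other 9 genes at most 7.59% of exonic bases were shared with another gene, the highest being Ccnt1 with an antisense gene. Reads from the bases that Ell3 shares with Serinc4 cannot be assigned by strand, as the 2 genes lie on the same one. The library kit does not mark strand, so reads from antisense overlaps cannot be assigned either.

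Within the ELL family the mean share of Ell2 was lower in leukemic libraries, as the choice of Ell2 favours. Ell2 made up 36.9%, 57.4%, 40.0% and 48.6% of the summed FPKM of Ell, Ell2 and Ell3 in control libraries 1 to 4. In leukemic libraries 1 to 4 it made up 31.9%, 41.9%, 24.1% and 23.6%. The shares overlapped, because leukemic library 2 combined the lowest Ell level with an Ell2 level near the top of its group. The mean share was 30.4 ± 8.57% (SD, n = 4) in leukemic and 45.7 ± 9.23% (SD, n = 4) in control libraries. Summed over the family, the level was 22.65 to 28.30 FPKM in controls and 14.41 to 21.29 FPKM in leukemic libraries, without overlap. Ell exceeded Ell2 in all 4 leukemic libraries and in 3 of 4 controls, the exception being control library 2. These family values include Ell2 and are a description.

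**Figure D2:**
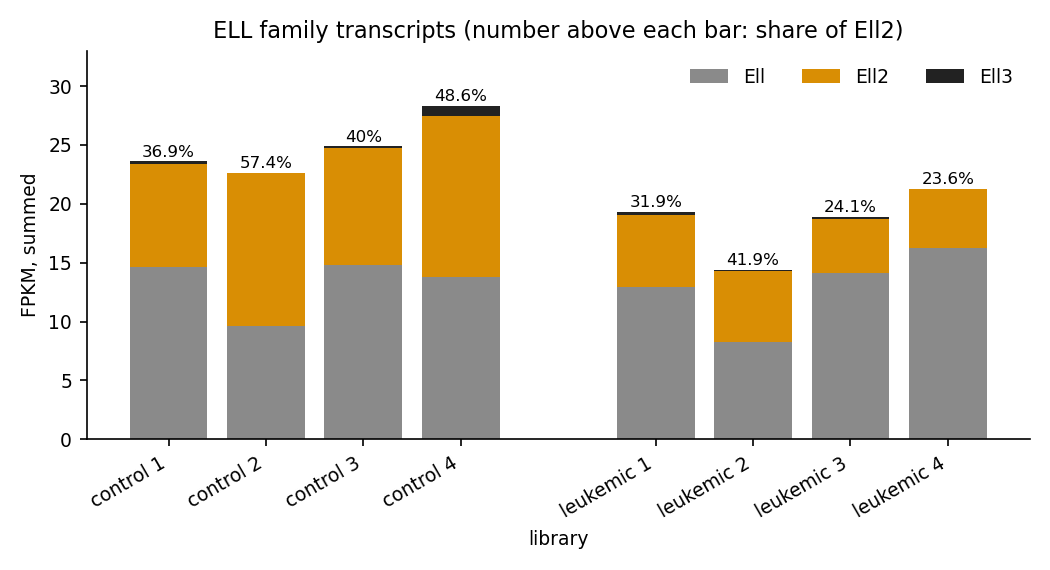
Summed FPKM of Ell (grey), Ell2 (orange) and Ell3 (black) in each library, with the share of Ell2 printed above each bar. The family sum was 14.41 to 21.29 FPKM in leukemic and 22.65 to 28.30 FPKM in control libraries, and the Ell2 segment was shorter in every leukemic library.

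Of the 10 genes, 9 reached 1 FPKM in at least 4 libraries and entered the limma fit of 11214 genes. Mllt3 did so with exactly 4 libraries. Across all genes tested, limma with Benjamini-Hochberg adjustment called 0 higher and 0 lower (0% in each direction) at 0.05, with a lowest adjusted p of 0.144. At an unadjusted p under 0.05, 2.49% of genes were higher and 4.13% lower. Of the 8 tested genes other than Ell2, 0 passed at either threshold. Their adjusted p ran from 0.695 to 0.967. In this group 6 had a lower and 2 a higher leukemic estimate, with a median of -0.07, where 53.6% of all genes tested had a lower and 46.4% a higher estimate and the median of all was -0.02. Groups did not overlap for 1 of the 8, Aff4, in the lower direction, as for 2.9% of all genes tested.

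The scaffold genes Aff1 and Aff4 differed from each other in level and in spread. Aff4, the usual scaffold of the complex, stood at 5.18, 6.70, 4.96 and 5.95 FPKM in control libraries 1 to 4. It stood at 2.25, 4.59, 4.36 and 4.66 FPKM in leukemic libraries 1 to 4. The groups were apart by a narrow margin, from 4.66 to 4.96 FPKM, and leukemic library 1 lay far below the rest. The difference was -0.46 (SE 0.22, 95% interval -0.96 to 0.04, limma adjusted p = 0.695). Without leukemic library 1 it was -0.27, and with the length trend removed it was -0.31. Aff4 has the longest transcript of the 10 genes, 10099 bases, and leukemic library 1 was among those with more short transcripts. What part this had in the difference was not tested.

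Aff1, the AF4 scaffold first found at leukemia translocations, stood at 3.40, 3.10, 3.26 and 2.43 FPKM in control libraries 1 to 4. In leukemic libraries 1 to 4 it stood at 2.19, 2.13, 3.66 and 3.61 FPKM. The leukemic libraries formed a pair below every control and a pair above every control. The low pair was libraries 1 and 2, which held more short transcripts, and the Aff1 transcript has 8318 bases. The difference was -0.07 (SE 0.21, 95% interval -0.54 to 0.39, adjusted p = 0.946 by limma). It was 0.20 without those libraries and 0.07 with the length trend removed. The share of Aff4 in the summed FPKM of Aff1 and Aff4 was 57.4 ± 7.63% in leukemic and 65.0 ± 5.49% in control libraries (SD, n = 4 each). These shares overlapped (exact permutation p = 0.143, adjusted p = 0.286 over 2 shares, two-sided), where 4 against 4 libraries can reach 0.0286.

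Cdk9, the kinase of P-TEFb, stood at 7.65, 8.42, 11.66 and 7.15 FPKM in control libraries 1 to 4. It stood at 5.48, 10.06, 5.27 and 4.95 FPKM in leukemic libraries 1 to 4. Leukemic libraries 1, 3 and 4 were below every control, and library 2 was above 3 of the 4 controls. The difference was -0.41 (SE 0.24, 95% interval -0.96 to 0.13, limma adjusted p = 0.698). Without leukemic library 2 it was -0.62, still short of the threshold (limma adjusted p = 0.592), and without control library 3 it was -0.28. It was -0.41 with the length trend removed and -0.65 without leukemic libraries 1 and 2.

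The cyclins that activate Cdk9 had closely matched levels in the groups. Ccnt1, the cyclin also used by HIV Tat in human cells, stood at 6.18 to 12.15 FPKM in controls (8.68, 6.18, 12.15 and 10.24 in libraries 1 to 4). It stood at 9.99, 6.42, 7.90 and 10.08 FPKM in leukemic libraries 1 to 4. Every leukemic value lay within the control range, with a difference of -0.09 (SE 0.23, 95% interval -0.60 to 0.42, limma adjusted p = 0.94). Ccnt2 stood at 8.12, 6.70, 9.43 and 8.81 FPKM in control libraries and at 7.70, 6.67, 8.40 and 8.68 FPKM in leukemic libraries 1 to 4. The groups overlapped, and the difference was -0.06 (SE 0.18, 95% interval -0.45 to 0.33, adjusted p = 0.947 by limma). Ccnt2 made up 48.1 ± 3.84% of the summed cyclin T level in leukemic and 47.6 ± 3.52% in control libraries (SD, n = 4 each; exact permutation p = 0.943, adjusted p = 0.943 over 2 shares, two-sided).

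Eaf1, which binds ELL proteins and stimulates them, stood at 9.70, 6.87, 9.50 and 7.36 FPKM in control libraries 1 to 4. It stood at 11.31, 5.45, 12.09 and 10.00 FPKM in leukemic libraries 1 to 4. Here 3 leukemic libraries exceeded every control and leukemic library 2 was below them all. The difference was 0.16 (SE 0.25, 95% interval -0.39 to 0.71, limma adjusted p = 0.89). It was 0.38 without leukemic library 2, 0.073 without leukemic library 1, 0.044 without leukemic library 3 and 0.078 without control library 2. It was 0.043 with TPM rescaling, 0.36 with array weights, 0.25 with the length trend removed and 0.37 without leukemic libraries 1 and 2. Mllt3, whose YEATS domain reads acylated histones, was scarce, at 1.25, 0.46, 0.73 and 1.08 FPKM in control and 0.86, 1.58, 0.77 and 1.46 FPKM in leukemic libraries 1 to 4. The groups overlapped, and the difference was 0.21 (SE 0.22, 95% interval -0.29 to 0.70, adjusted p = 0.824 by limma). Without control library 2 it was 0.091 and without leukemic library 2 it was 0.12, with array weights 0.0016 and with a pseudocount of 0.1 it was 0.39.

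**Figure D3:**
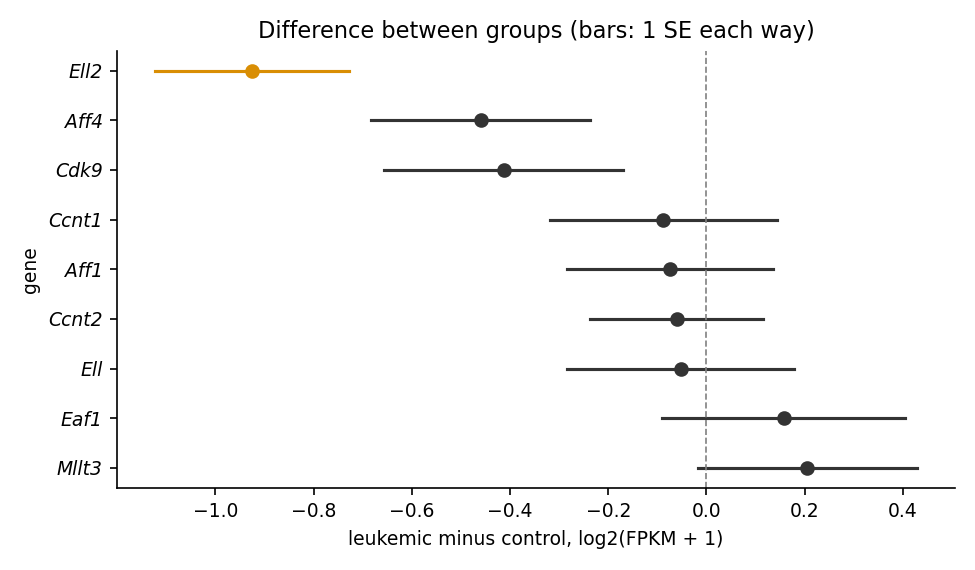
Difference (leukemic less control, log2 of FPKM + 1) for the 9 genes tested, with bars of 1 SE each way. Ell2 (orange), chosen for this difference, was at -0.92, followed by Aff4 at -0.46 and Cdk9 at -0.41, and the other 6 lay between -0.09 and 0.21.

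In the same build, Aff1 (gene ID 17355) lies at chr5:103692362-103855322 and Aff4 (93736) at chr11:53350640-53421830. Cdk9 (107951) lies at chr2:32705782-32712784, Ccnt1 (12455) at chr15:98538690-98567736 and Ccnt2 (72949) at chr1:127774164-127804837. Eaf1 (74427) lies at chr14:31495079-31509858 and Mllt3 (70122) at chr4:87769925-88033407. FPKM is a value per gene, so it does not separate exons or isoforms.

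The order of levels over the 8 libraries, by mean FPKM, was Ell (13.04), Eaf1 (9.04), Ccnt1 (8.96), Ell2 (8.40), Ccnt2 (8.06), Cdk9 (7.58), Aff4 (4.83), Aff1 (2.97), Mllt3 (1.02) and Ell3 (0.228). Of the 9 neighbouring pairs, 5 kept their order in all 8 libraries with a mean paired log2 difference above its SD. These were Ell above Eaf1, Cdk9 above Aff4, Aff4 above Aff1, Aff1 above Mllt3 and Mllt3 above Ell3. The middle genes from Eaf1 to Cdk9 did not differ from their neighbours beyond that spread. Aff1, Mllt3 and Ell3 ranked 8th, 9th and 10th in every library. By group mean, Ell2 was the second most abundant of the 10 in controls and the sixth in leukemic libraries, as its choice favours. These places were within the spread. The mean log2 difference of Ell2 over Ccnt1 in controls was 0.27 (SD 0.53). That of Cdk9 over Ell2 in leukemic libraries was 0.17 (SD 0.35). The rank of Ell2 was 3, 1, 4 and 2 in control libraries 1 to 4, and 5, 5, 6 and 5 in leukemic libraries 1 to 4.

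How closely the other tested genes of the complex followed Ell2 from library to library depended on whether group means were kept. Pearson's r with Ell2 in log2(FPKM + 1) over the 8 libraries was 0.61 for Aff4 and 0.54 for Cdk9, whose leukemic means were lower too. These r exceeded those of 91.0% and 87.2% of genes tested, and the other tested genes of the complex ran from -0.46 to 0.05. With the mean of each group taken off, the r of Aff4 and Cdk9 became 0.01 and 0.08. Those of Ell, Eaf1, Aff1 and Ccnt2 were then -0.56, -0.60, -0.76 and -0.46. Ccnt1 and Mllt3 were at -0.24 and -0.14, and the median of all genes tested was -0.06. The libraries share their length balance across genes, so these values are given as a description.

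Genes with the pattern most like that of Ell2 were sought among 7101 tested genes with a mean of at least 5 FPKM, leaving out predicted genes. Over the 8 libraries the closest were Rab28, a small GTPase (r = 0.97, Spearman rho = 0.95), Eif4g3, a translation initiation scaffold (0.97, 0.98), the adhesion receptor Adgra3 (0.97, 0.95), Imp4, a factor of ribosomal RNA processing (0.955, 0.93), and the peptidase Dpp8 (0.95, 0.90). In each of these 5 the groups did not overlap and the leukemic level was lower, as the choice by likeness to Ell2 favours. Rab28, for example, was at 89.5 ± 2.69 FPKM in leukemic and 109 ± 9.94 FPKM in control libraries (SD, n = 4 each). With group means taken off, the closest were Socs5, an inhibitor of cytokine signalling (r = 0.96), Adgra3 (0.95), Rab28 (0.92), Timm44, a mitochondrial import protein (0.92), and Wsb2 (0.92). Adgra3 and Rab28 were in both sets. Adgra3 stood at 8.26 ± 1.27 FPKM in leukemic and 14.2 ± 3.72 FPKM in control libraries (SD, n = 4 each). These genes were picked by r, so no test is given.

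The neighbours of Ell2 on chromosome 13 that the table holds, chosen after the values were seen, had small estimates with wide intervals where tested. Glrx, a glutaredoxin 67.5 kb away, stood at 37.3 ± 8.46 FPKM in leukemic and 39.3 ± 9.52 FPKM in control libraries (SD, n = 4 each; difference -0.07, limma adjusted p = 0.955). Rhobtb3, 97.2 kb away, differed by 0.09 and Cast, the calpain inhibitor 899 kb away on the other side, by 0.01. The 95% intervals were -0.57 to 0.43 for Glrx, -0.40 to 0.58 for Rhobtb3 and -0.38 to 0.40 for Cast. Pcsk1, between Cast and Ell2, was listed at 0 in 7 of 8 libraries.

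Genes other than the 10 were examined as 10 lists of 72 genes, called elongation lists here. They held polymerase subunits, elongation factors, paralogs of complex members such as ENL, and 16 early genes controlled by pausing. Of the 72 genes 69 were tested, and 0 passed in either direction (background 0% in each). Lower estimates were found for 27 and higher ones for 42, with a median of 0.06. Of all genes tested, 53.6% had lower estimates, with a median of -0.02. The early genes gave 4 of the lower and 12 of the higher estimates. Groups did not overlap for 1 tested gene in each direction, both of them early genes. Over all genes tested, 0.954% were apart in the higher and 2.9% in the lower direction. The split depended on scaling: with totals rescaled to TPM, which moves the median of all genes to -0.14, 44 had lower estimates, and with quantile normalization 40 did.

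Among the controllers of P-TEFb, 4 of 5 had lower estimates and 0 passed. The list median was -0.15, with -0.09 when the length trend was removed and -0.41 without leukemic libraries 1 and 2. Hexim1, Larp7 and Mepce hold P-TEFb inactive on the 7SK RNA. Larp7, the only controller with a higher estimate, stood at 14.1 ± 1.48 FPKM in leukemic and 13.4 ± 2.83 FPKM in control libraries (SD, n = 4 each). Of the paralogs of complex members, 3 of 4 were tested, 1 with a lower and 2 with higher estimates. Aff3 stood at 18.2 ± 4.72 FPKM in leukemic and 18.3 ± 6.104 FPKM in control libraries (SD, n = 4 each), above Aff1 and Aff4 in mean level. Mllt1, which encodes ENL, stood at 3.74 ± 0.544 and 3.39 ± 1.38 FPKM, above Mllt3.

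The pausing factors NELF and DSIF had 4 of 6 lower estimates, and the PAF1 complex, which travels with the polymerase, 3 of 6. Nelfb stood at 44.8 ± 10.4 FPKM in leukemic and 49.1 ± 3.87 FPKM in control libraries, and Paf1 at 35.2 ± 6.204 and 37.3 ± 2.61 FPKM (SD, n = 4 each). Supt4a, the small DSIF subunit, had 64.71, 88.14, 32.47 and 11.23 FPKM in leukemic libraries 1 to 4 and 14.55 to 27.71 FPKM in controls. It was highest in leukemic libraries 1 and 2, and the difference was 0.91 (SE 0.53). Wdr61 of the PAF1 complex stood at 101 ± 26.4 and 91.9 ± 18.3 FPKM (SD, n = 4 each).

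RNA polymerase II subunits had 11 of 13 higher estimates and a median of 0.34, and other elongation factors 8 of 10 and a median of 0.15. None of these genes passed. The polymerase subunits tested have a median transcript length of 1015 bases, against 2818 bases over all genes tested. Their median was 0.12 with the length trend removed and -0.01 without leukemic libraries 1 and 2. Polr2e, a subunit shared by the 3 RNA polymerases, had 124.1, 128.3, 118.7 and 59.38 FPKM in leukemic libraries 1 to 4 and 65.20 to 87.34 FPKM in controls. Polr2d stood at 74.9 ± 26.2 and 56.1 ± 6.56 FPKM (SD, n = 4 each). Elob, also part of ubiquitin ligases, stood at 79.6 ± 60.6 FPKM in leukemic and 32.4 ± 8.95 FPKM in control libraries (SD, n = 4 each). In leukemic libraries 1 to 4 it had 123.9, 139.0, 36.49 and 18.94 FPKM, against 25.34 to 45.53 FPKM in controls. Eloc stood at 45.2 ± 19.4 and 30.2 ± 3.003 FPKM (SD, n = 4 each). Its leukemic libraries 1 to 4 had 49.4, 70.24, 35.63 and 25.35 FPKM. The median of the other elongation factors was 0.15 with the length trend removed and 0.05 without leukemic libraries 1 and 2.

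The DOT1L complex, a histone H3 methyltransferase that shares AF9 and ENL with the super elongation complex, had 3 of 3 lower estimates, with a median of -0.30 and no gene past the threshold. Summed over Dot1l, Mllt6 and Mllt10, the level was 6.70 to 7.16 FPKM in leukemic and 8.56 to 11.66 FPKM in control libraries. In every other elongation list the summed ranges of the groups overlapped. Each of the 3 DOT1L genes taken singly overlapped too, where 2.9% of all genes tested were apart in the lower direction. Mllt10 stood at 2.96, 2.59, 3.63 and 3.09 FPKM in leukemic libraries and at 3.40, 4.60, 4.80 and 4.71 FPKM in control libraries 1 to 4. The 2 groups crossed only through leukemic library 3 and control library 1 (difference -0.40, SE 0.18, limma adjusted p = 0.695). Dot1l stood at 2.06 ± 0.4798 and 2.61 ± 0.632 FPKM (SD, n = 4 each). These transcripts are long, with a median of 6808 bases, and the list median was -0.16 with the length trend removed. The list median was -0.30 without leukemic libraries 1 and 2 and -0.39 with TPM rescaling.

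In the little elongation complex, which uses ELL proteins at small nuclear RNA genes, 1 of 3 genes had a lower estimate. Ice2 stood at 3.33 ± 0.838 FPKM in leukemic and 2.67 ± 0.7002 FPKM in control libraries, and Zc3h8 at 2.495 ± 0.3205 and 2.31 ± 0.528 FPKM (SD, n = 4 each). The other kinases and cyclins of the polymerase tail had 3 of 4 lower estimates with a median of -0.03. Ccnh stood at 16.6 ± 3.098 and 16.9 ± 2.25 FPKM, and Mnat1 at 17.9 ± 3.83 and 16.8 ± 4.15 FPKM (SD, n = 4 each). Cdk13, another kinase of the polymerase tail, was too scarce for the test, at 0.37 to 0.62 FPKM in leukemic and 0.75 to 1.34 FPKM in control libraries, without overlap. Among the genes tested, which leave Cdk13 out, 2.9% were apart in the lower direction.

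Early genes whose polymerase is held near the start until P-TEFb acts were very abundant in sum in both groups. Their summed levels were 7963 to 10659 FPKM in leukemic and 7960 to 9801 FPKM in control libraries. Not all were abundant, with Egr3 at 1.94 to 3.51 FPKM and Hspa1b at 2.05 to 7.32 FPKM over all libraries. Of 16 tested, 12 had higher and 4 lower estimates, with a median of 0.09 and 0 past the threshold. The list median was -0.05 with TPM rescaling and 0.22 without leukemic libraries 1 and 2. Fos stood at 3515 ± 470.4 FPKM in leukemic and 3476 ± 901 FPKM in control libraries (SD, n = 4 each). Egr1 had 1317 to 1531 FPKM in leukemic and 976 to 1119 FPKM in control libraries, with a difference of 0.43 (SE 0.17, limma adjusted p = 0.695). Ier2 went the other way, at 288 to 358 FPKM in leukemic and 422 to 506 FPKM in control libraries (difference -0.45, SE 0.16, adjusted p = 0.695 by limma). These were the 2 tested elongation-list genes whose groups did not overlap.

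**Figure D4:**
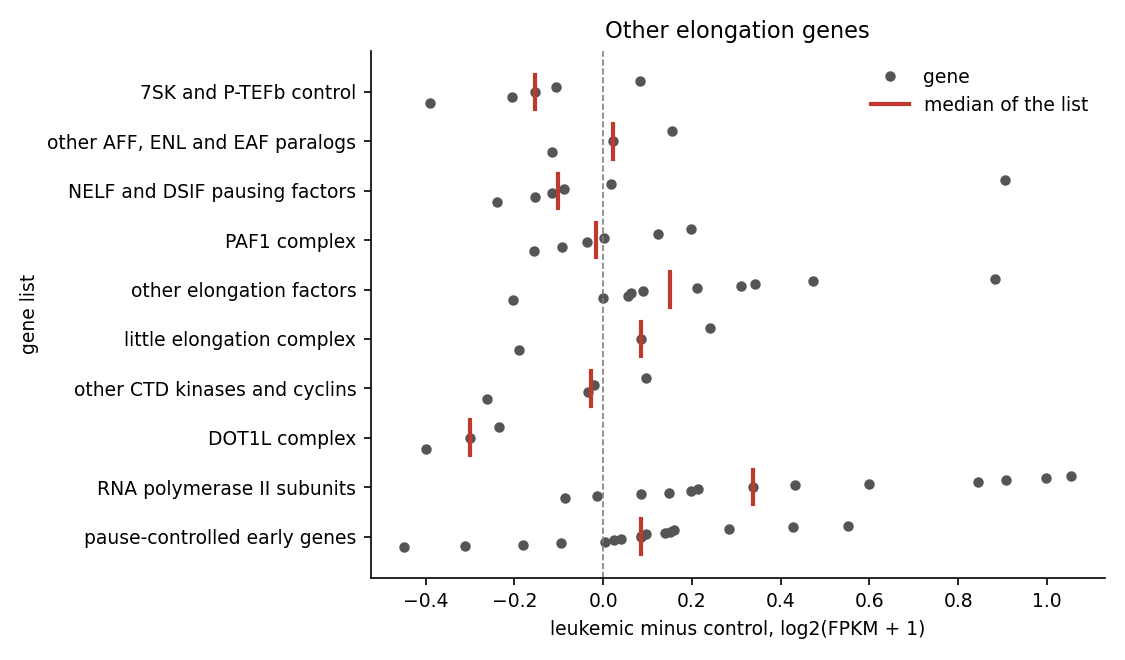
Difference (leukemic less control, log2 of FPKM + 1) for each tested gene (grey points) of the 10 elongation lists, with list medians in red. The medians ran from -0.30 for the DOT1L complex to 0.34 for RNA polymerase II subunits, whose values spread furthest to the right.

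Osteoblast markers were present at high levels in every library, with Col1a1 at 3228 to 10300 FPKM, Spp1 at 19667 to 60684 FPKM and Sparc at 11669 to 19826 FPKM. Of the 14 osteoblast markers, 12 had lower estimates and 0 passed, where 53.6% of all genes tested had lower estimates. The list median was -0.16, against -0.02 for all genes tested. It was -0.30 with the length trend removed and -0.29 without leukemic libraries 1 and 2. Groups did not overlap for 1 of the 14, lower in leukemic libraries, as for 2.9% of all genes tested. It was Phex, a peptidase of mineralizing cells, at 4.14 ± 0.723 FPKM in leukemic and 8.90 ± 2.57 FPKM in control libraries (SD, n = 4 each). Since Ell2 is abundant in plasma cells, their markers were checked beside it. Xbp1 and Sdc1, which bone cells also express, made up most of the 8-gene sum, which was 255 to 342 FPKM in leukemic and 321 to 417 FPKM in control libraries. Xbp1, a secretory pathway regulator, had 206 to 256 FPKM in leukemic and 270 to 341 FPKM in control libraries, without overlap (difference -0.33, SE 0.17, limma adjusted p = 0.695). Of the plasma cell markers 2 were tested, and groups did not overlap for 1 of them, as for 2.9% of all genes tested in the lower direction. Sdc1 stood at 68.0 ± 17.1 and 73.4 ± 17.8 FPKM (SD, n = 4 each). The defining markers Jchain, Mzb1, Prdm1, Irf4, Tnfrsf17 and Tnfrsf13b did not exceed 2.06 FPKM in any library.

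B-lineage markers summed to 20.8 to 58.3 FPKM in leukemic and 19.98 to 41.27 FPKM in control libraries, most of it Ebf1, which stromal cells also express (22.03 ± 10.9 and 27.4 ± 10.6 FPKM; SD, n = 4 each). The precursor markers Vpreb1 and Igll1 were highest in leukemic libraries 1 and 2, at 3.06 and 4.33 FPKM for Vpreb1, while Pax5 was listed at 0 in 7 of 8 libraries. Of the 15 markers, 3 were tested, 2 with higher estimates (Cd79a at 1.96 ± 1.46 and 0.79 ± 0.599 FPKM; SD, n = 4 each). Erythroid markers ran from 3.91 to 2011 FPKM in leukemic and from 33.4 to 889 FPKM in control libraries, with wide ranges in both groups. Hba-a1 was at 2.24 FPKM in leukemic library 4 and 845 FPKM in leukemic library 2, in which Ell2 stood at 5.03 and 6.04 FPKM. Hba-a2 ran from 0.31 to 568 FPKM. Myeloid markers summed to 71.8 to 165 FPKM in leukemic and 69.6 to 91.1 FPKM in control libraries, with Lyz2 at 82.9 ± 34.0 and 42.97 ± 5.57 FPKM and Cd14 at 28.2 ± 7.66 and 28.5 ± 7.07 FPKM (SD, n = 4 each). Pan-leukocyte markers reached at most 9.09 FPKM in sum, led by Laptm5 and Coro1a, and endothelial markers, led by Cdh5 and Emcn, at most 1.66 FPKM. The part of these cell types in the Ell2 difference was not tested.

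**Figure D5:**
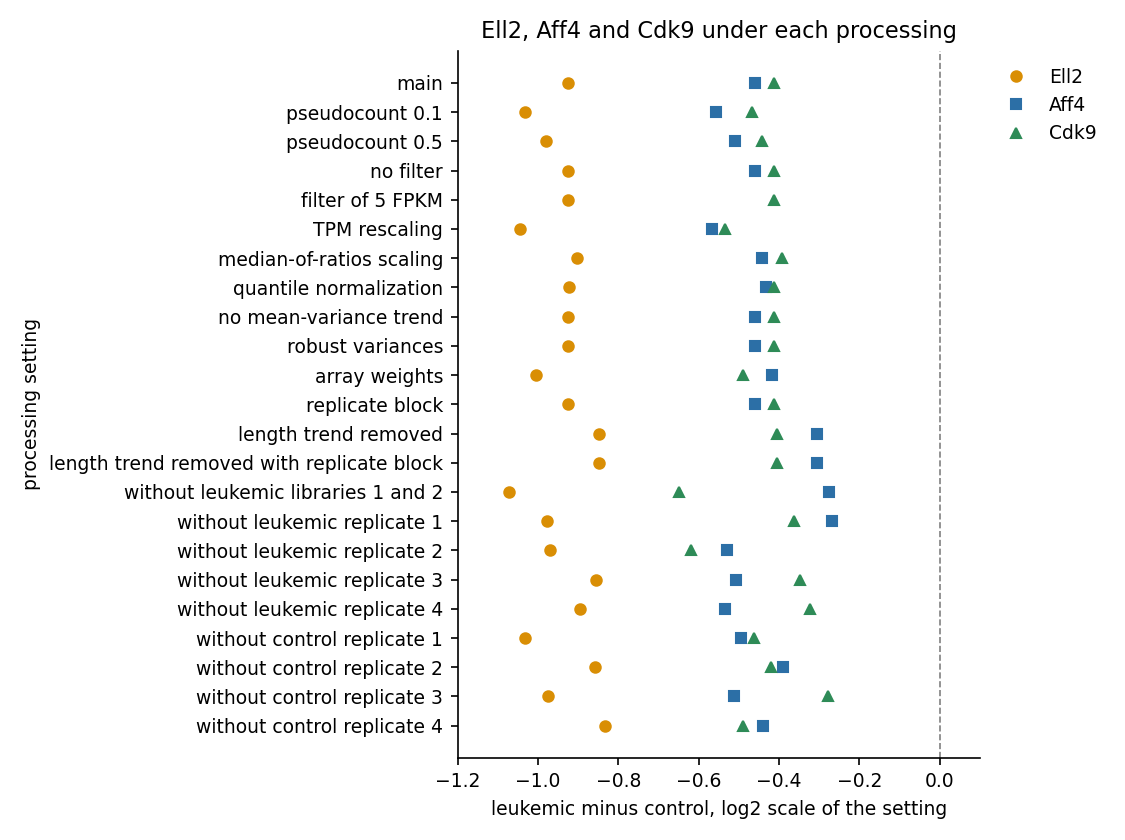
Leukemic minus control for Ell2 (orange circles), Aff4 (blue squares) and Cdk9 (green triangles) under the processing used here (top row) and 22 alternatives. Ell2, chosen for this difference, ran from -1.07 to -0.83, Aff4 ran from -0.57 to -0.27 and Cdk9 from -0.65 to -0.28, and Aff4 has no point with the filter of 5 FPKM.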

How the data were processed

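RNA from FACS-sorted osteoblastic cells was amplified with a SMART-Seq v4 kit, as the labels' protocols state. The authors deposited 1 table of FPKM per library for 17068 genes, with group means and a log2 ratio; how that ratio was computed is not given here. RSEM 1.2.8, Bowtie2 2.2.5 and HISAT2 2.0.4 appear in the submitters' processing notes, beside DESeq2 and the build GRCm38.p6, without settings. Depth is unknown: low values showed no steps of single reads (at most 2.2% of genes shared a ratio between libraries). Summed FPKM ran from 456191 to 632055 per library, and 10911 to 11162 genes reached 1 FPKM.

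Values were analysed as log2(FPKM + 1) for 11214 genes, those that 4 or more libraries held at 1 FPKM or above, by limma 3.58.1 (R 4.3.3) with a mean-variance trend and no covariates. Tests were two-sided, with Benjamini-Hochberg adjustment over all genes at 0.05, and the limma step was tested on simulated data. Count models were not used. Shares were compared by exact permutation (scipy 1.17.1). Transcript lengths, from GENCODE M21 transcripts matched to curated RefSeq entries, covered 99.1% of genes tested, and length trends were removed by lowess (span 0.3). Positions and promoters came from RefSeq, with promoters found for all 10 genes.

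The genes, lists and tests were chosen with earlier results of these data known. The text names all 10 genes, the 2 most abundant genes of each list, and any list gene past the threshold or with groups that do not overlap, plus the 5 genes most like Ell2 by r in each way of measuring it; 1 gene that this rule names is not reported here. Col1a1 and the B-lineage and plasma cell genes below the threshold were named after their values were seen. Replicate numbers gave no pairing: same-numbered libraries had correlations of -0.07 to 0.22 in their deviations.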

Additional observations from a re-analysis of the deposited data

Results flagged for a closer look

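In 20 groups of 4 libraries (10 genes, 2 disease states), the gap between the farthest library and its nearest neighbour was divided by the range of the group, and 2 groups exceeded Dixon's 95% critical value. Chance gives about 1 in 20 groups. For Aff4, leukemic library 1 (2.25 FPKM) lay apart from the others (4.36 to 4.66 FPKM), with a ratio of 0.876. For Cdk9, leukemic library 2 (10.06 FPKM) lay above the others (4.95 to 5.48 FPKM), with a ratio of 0.896.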

How the results depend on the processing

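The Ell2 difference ran from -1.07 without leukemic libraries 1 and 2 to -0.83 without control library 4 over 22 alternatives; its direction was fixed by the choice of the gene and says nothing about stability. For the other 8 genes tested, 0 of 173 alternative values passed the threshold of limma (lowest adjusted p = 0.321), and 17 changed sign. Ell became 0.045 with array weights and 0.20 without leukemic libraries 1 and 2, and ran from -0.19 to 0.13 when 1 library was left out (0.0048 without control library 3). Aff1 became 0.065 with array weights, 0.072 with the length trend removed (also together with the replicate block) and 0.20 without leukemic libraries 1 and 2, and ran from -0.17 to 0.022 (0.013 without leukemic library 1). Ccnt1 ran from -0.25 to 0.040 (0.029 without leukemic library 2). Ccnt2 became 0.0080 with array weights, 0.075 with the length trend removed (also with the block) and 0.051 without leukemic libraries 1 and 2, and ran from -0.15 to 0.0069. The cause was not tested. The filter of 5 FPKM gave no value for Aff1, Aff4 and Mllt3, which did not pass it.

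Over all genes, limma called 0 lower in every alternative. It called 1 higher without the filter, 4 with totals rescaled to TPM, 3 with quantile normalization, 6 with array weights, 4 with the length trend removed and 1 when the block was added to that, and 0 to 2 when 1 library was left out; the other alternatives gave 0. With the replicate block alone it called 0 and the Ell2 difference was again -0.92, as a balanced block leaves group differences unchanged. The numbers are shared by label only, and 3 of 8 libraries correlated best with their own number. In all 22 alternatives 0 of the elongation-list genes were called. Lower estimates among them numbered 16 with the filter of 5 FPKM, where fewer genes were tested, and 44 after TPM rescaling, against 27. The difference in the Ell2 share, which rests on the same choice, ran from -21.8 to -11.4 percentage points. Depth is unknown, so the counting error of scarce genes such as Mllt3 and Ell3 cannot be given.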
